A study of Mus musculus with 12 samples.

Results

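Transcripts of 4 integrin α chains, Itga6, Itga7, Itga8 and Itga11, were described across genotype and TGF-β1 treatment in mouse pancreatic stellate cells (PSCs), the fibroblast-like cells of the pancreas that become myofibroblasts when activated. The 4 chains are among 18 integrin α chain genes and 420 genes listed in the normalised count tables. They were chosen by name, with their normalised counts in these 12 libraries already known and with no stated threshold. Their values and differences are therefore given here as a description. Calls of the 4 chains by limma are listed further below and are no independent evidence. The cells were PSCs isolated by density centrifugation from the pancreas of 1 male C57BL/6 mouse that carried Rosa26-CreERT2 and PKN2 fl/fl, and they were immortalised with SV40 large T antigen. PKN2 KO cells were derived by a short treatment with 4-hydroxytamoxifen, which switches on the Cre recombinase, and WT cells were those labelled as retaining PKN2. What WT cells received in place of 4-hydroxytamoxifen is not given in the sources used here. Cells of each genotype received vehicle or 5 ng/ml TGF-β1 and RNA was harvested after 72 h, which gave 4 groups of 3 libraries labelled A, B and C. All 4 groups therefore share the strain, the floxed parental line, the immortalisation and the inducible Cre.

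Integrins are surface receptors built from 1 α and 1 β chain, and the pair decides which matrix protein a cell binds. The α6 and α7 chains pair with β1, and α6 also with β4, to form laminin receptors, and α7 is best known from skeletal and smooth muscle. The α8 chain pairs with β1 to bind ligands with an RGD motif, such as fibronectin, tenascin C and osteopontin, and is found on mesenchymal cells. The α11 chain pairs with β1 as a receptor for fibrillar collagen on fibroblasts. TGF-β1 is the main cytokine that turns PSCs into contractile, matrix-producing myofibroblasts. PKN2 is a protein kinase.

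RefSeq promoter entries in build GRCm38.p6 matched 2 of the 4 chains, Itga8 and Itga11, and sequence upstream of these is shown so that the flanking DNA can be read beside their values. The stretch printed runs from 250 to 51 bases before the RefSeq start, 5′ to 3′ on the strand of the gene, at chr2:12301995-12302194 on the minus strand for Itga8 and at chr9:62677605-62677804 on the plus strand for Itga11. Capitals would mark a match, on either strand, to CAGAC (the SMAD half-site), GGAATG (the TEAD site), TGANTCA (the AP-1 site) or GGGCGG (the GC box).
Itga8: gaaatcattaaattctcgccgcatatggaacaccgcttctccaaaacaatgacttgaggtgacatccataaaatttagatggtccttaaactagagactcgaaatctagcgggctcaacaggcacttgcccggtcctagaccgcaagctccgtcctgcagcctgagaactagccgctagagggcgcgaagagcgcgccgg
Itga11: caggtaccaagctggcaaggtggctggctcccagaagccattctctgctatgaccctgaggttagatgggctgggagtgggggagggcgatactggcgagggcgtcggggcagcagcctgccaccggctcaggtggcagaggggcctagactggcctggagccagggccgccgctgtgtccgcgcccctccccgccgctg
Neither stretch held any of these letters, so both are wholly in lower case. Among 32851 RefSeq promoters cut to the same window, CAGAC was present in 35.8%, GGAATG in 10.7%, TGANTCA in 5.57% and GGGCGG in 24.6%. Nothing about the binding of these factors follows from the absence of a match in this window.

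Expression was measured with a targeted amplicon panel of extracellular matrix and cell adhesion genes, and between 1074095 and 1473153 reads were assigned to panel genes per library. Values are normalised counts, which are reads divided by a factor per library that the authors took from reference genes. The vehicle and the TGF-β1 libraries were deposited as separate sets, so every comparison of TGF-β1 with vehicle runs across sets. The factors of WT vehicle A and WT TGF-β1 A were the same, at 0.847. Whether the sets were normalised together was not tested. Primers differ between amplicons, so levels of different genes are not compared with each other. A gene was tested when it reached a normalised count of 10 in at least 3 libraries, which left 238 genes. Itga6, Itga7 and Itga8 reached that level in all 12 libraries, whereas Itga11 reached it in the 6 vehicle libraries only and so entered the test through the groups in which it was high. Pkn2 itself was not among the genes listed, so its deletion was not checked here. Fibroblast and stellate markers (8 genes, including Col1a1, Col3a1 and Fn1) summed to between 242894 and 559994 normalised counts per library. Not all 8 were high. Lum was at 4.93 or less in vehicle and at 0 with TGF-β1 in both genotypes. Dcn ran from 6.08 to 55.1 in vehicle and from 0.79 to 4.88 with TGF-β1. Epithelial (6 genes), endothelial (5 genes) and leukocyte (7 genes) markers summed to at most 38.9, 31.9 and 33.9, and Cdh16, Sele and Itgal were at 0 throughout. These low sums differed between groups. The endothelial sum was 4.69 to 7.07 in vehicle and 15.5 to 31.9 with TGF-β1. Of these genes, Cd93 was at 2.34 or less in vehicle and at 2.44 to 17.7 with TGF-β1. The leukocyte sum was 16.3 to 33.9 in vehicle and 4.30 to 11.0 with TGF-β1. The 4 glial markers summed to between 709 and 1997, all of it from L1cam, while Cdh19, Mag and Ncan were at 0. The sources differ on what libraries A, B and C are, since the study's methods describe PSCs of 1 mouse and count biological replicates in general, whereas the design text of the deposit speaks of 3 lines per genotype. No label of a library names its line or culture. The p-values below thus measure the spread between 3 libraries per group, whether of lines, cultures or technical origin. In bulk RNA such as this, fewer cells expressing a gene and less RNA per cell cannot be told apart.

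The 4 chains moved in different directions with TGF-β1. Itga7 was higher after TGF-β1 in both genotypes, Itga6 and Itga11 were lower in both, and Itga8 was lower in PKN2 KO cells, with overlapping libraries in WT. In vehicle, PKN2 KO cells held about 3.11 times as much Itga7 transcript as WT cells. After TGF-β1, Itga11 was nearly absent from PKN2 KO cells, at 0 to 3 reads per library.

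**Figure D1:**
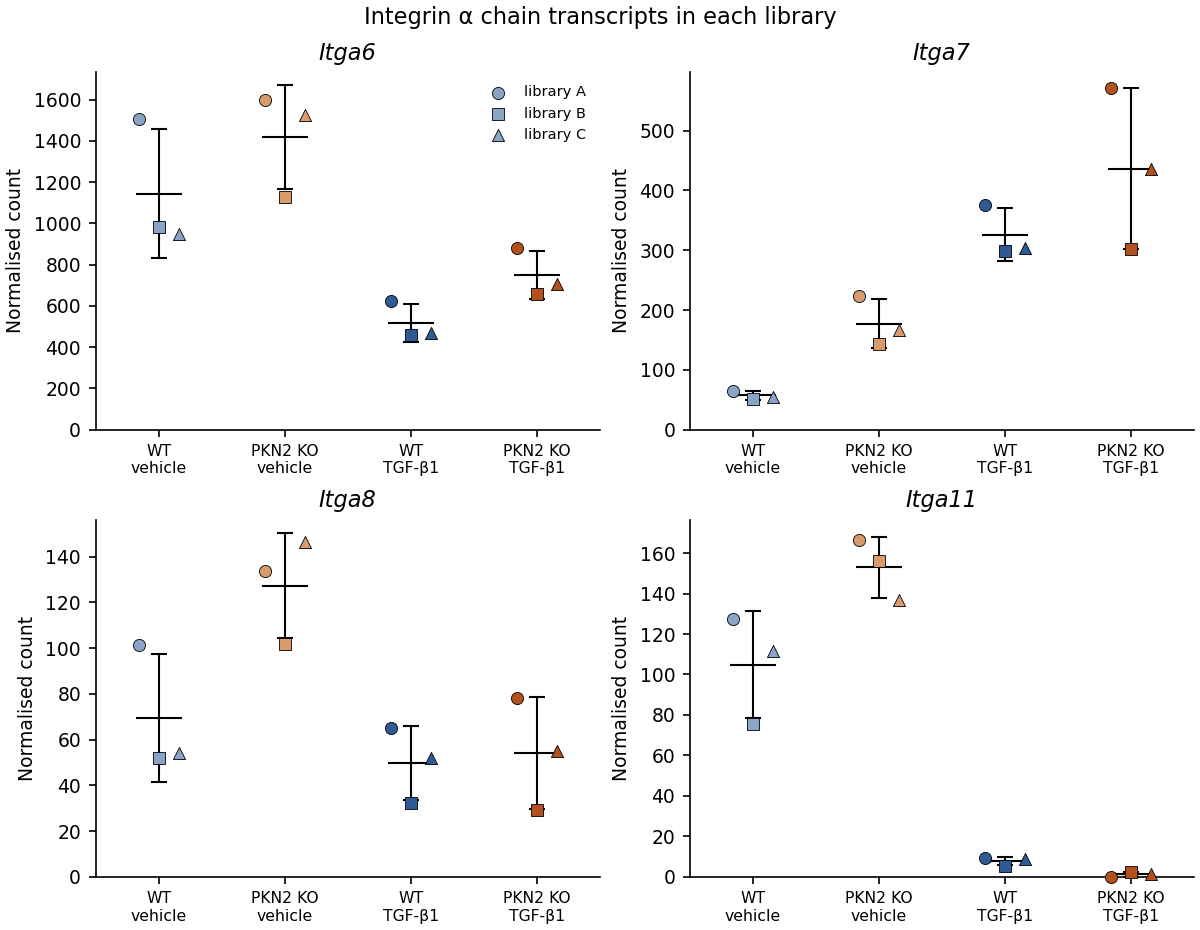
Normalised counts (y axis, linear, from 0) of Itga6, Itga7, Itga8 and Itga11 in the 4 groups (x axis). Circles, squares and triangles are libraries A, B and C, the wide bar is the mean and the whiskers are 1 SD (n = 3), cut at 0. Mean Itga7 is lowest in WT vehicle (56.9) and highest in PKN2 KO cells with TGF-β1 (437), whereas mean Itga11 is 105 and 153 in vehicle and 7.87 and 1.27 after TGF-β1 in WT and PKN2 KO cells.

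Itga6 (ENSMUSG00000027111), the α6 laminin receptor chain, lies at chr2:71745616-71858416 on the plus strand (GRCm38, GENCODE M21). In WT cells with vehicle its normalised counts were 1506, 981 and 947 in libraries A, B and C. The PKN2 KO counts with vehicle were 1598, 1129 and 1528. The 2 vehicle groups overlapped, with library A the highest in each. After TGF-β1 the counts were 624, 459 and 467 in WT cells. The PKN2 KO counts with TGF-β1 were 880, 659 and 707, with no overlap between the genotypes. All 6 libraries with TGF-β1 were below all 6 with vehicle. The mean was 1144 ± 313 in vehicle and 517 ± 93.1 with TGF-β1 in WT cells, and 1418 ± 253 and 748 ± 116 in PKN2 KO cells (SD, n = 3). On the log2(normalised count + 1) scale used for all differences below, the change with TGF-β1 was -1.13 (SE 0.22) in WT and -0.92 (SE 0.22) in PKN2 KO cells. The order of group means was PKN2 KO vehicle, WT vehicle, PKN2 KO TGF-β1 and WT TGF-β1, and only the first pair of neighbours overlapped.

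Itga7 (ENSMUSG00000025348), the α7 laminin receptor chain, lies at chr10:128933818-128958282 on the plus strand. Its normalised counts in WT cells with vehicle were 64.9, 50.7 and 55.2. Those of PKN2 KO cells with vehicle were 223, 143 and 166, with no overlap between the genotypes. After TGF-β1 the counts were 376, 298 and 305 in WT cells. Those of PKN2 KO cells with TGF-β1 were 572, 303 and 436, and library B of the PKN2 KO group lay inside the WT range. The genotype difference was 1.60 (SE 0.25) in vehicle and 0.38 (SE 0.25) after TGF-β1. The response to TGF-β1 was 2.50 (SE 0.25) in WT and 1.27 (SE 0.25) in PKN2 KO cells, or 5.73 and 2.46 as ratios of the mean counts. The difference between those responses, PKN2 KO minus WT, was -1.22 (SE 0.35). Thus the lowest group was WT vehicle at 56.9 ± 7.27, followed by PKN2 KO vehicle at 177 ± 41.1, WT TGF-β1 at 326 ± 43.5 and PKN2 KO TGF-β1 at 437 ± 135, and only the last 2 overlapped. The muscle marker Sgca moved in the same group order at a low level, with means of 8.61 (WT) and 10.8 (PKN2 KO) for vehicle, then 11.5 (WT) and 16.9 (PKN2 KO) for TGF-β1. It was not called in any comparison, and another muscle marker, Cdh15, was at 0 outside WT TGF-β1. The part of muscle-type transcripts in the Itga7 values was not tested.

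Itga8 (ENSMUSG00000026768), the α8 chain that binds RGD ligands, lies at chr2:12106632-12301922 on the minus strand. It was counted at 34 to 144 reads per library. WT cells with vehicle held normalised counts of 101.5, 52.0 and 54.2. PKN2 KO cells with vehicle held 134, 101.7 and 146, so that the lowest PKN2 KO library, B, was barely above the highest WT library, A. After TGF-β1 the counts were 64.9, 32.4 and 51.9 in WT cells. PKN2 KO cells with TGF-β1 held 78.0, 29.2 and 54.9, and these ranges overlapped with each other and with WT vehicle. The genotype difference was 0.92 (SE 0.39) in vehicle. After TGF-β1 it was 0.07 (SE 0.39), and its sign turned to -0.04 with trimmed-mean (TMM) factors and -0.06 with median-of-ratios factors. The change with TGF-β1 was -0.46 (SE 0.39) in WT and -1.31 (SE 0.39) in PKN2 KO cells. The highest mean was that of PKN2 KO vehicle (127 ± 22.9), and the other 3 group means, 69.2 ± 27.9, 54.0 ± 24.4 and 49.7 ± 16.4, did not separate beyond their spread.

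Itga11 (ENSMUSG00000032243), the α11 collagen receptor chain, lies at chr9:62677826-62783982 on the plus strand. Its normalised counts were 127, 75.7 and 111 in WT cells with vehicle. PKN2 KO cells with vehicle were at 166, 156 and 137, all above the WT libraries. After TGF-β1 the counts were 9.44, 5.53 and 8.65 in WT cells, from 8, 7 and 9 reads. In PKN2 KO cells with TGF-β1 they were 0, 2.58 and 1.22, from 0, 3 and 1 reads. No group overlapped with another, and the 2 genotypes changed order between vehicle and TGF-β1. Summed over libraries, 333 reads in vehicle stood against 24 after TGF-β1 in WT cells, a 13.1-fold ratio after the authors' factors (95% exact binomial interval 8.65 to 20.7). In PKN2 KO cells 492 reads stood against 4, a ratio of 104 (40.3 to 383). After TGF-β1, WT cells held 24 reads and PKN2 KO cells 4, a ratio of 5.16 (1.77 to 20.5). These intervals cover counting error only. The fitted differences, which depend on the pseudocount because of the near-zero counts, were 0.57 (SE 0.44) for genotype in vehicle, -2.12 (SE 0.44) for genotype after TGF-β1, -3.57 (SE 0.44) for TGF-β1 in WT and -6.27 (SE 0.44) for TGF-β1 in PKN2 KO cells.

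Within groups, the libraries of 1 letter kept their place. Library A was the highest of its group in 14 of the 16 combinations of chain and group, and library B was the lowest in 13. The authors' factors ran from 0.731 to 0.853 for library A and from 1.16 to 1.48 for library B. The part of the factors in this order was not tested.

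Read against all tested genes, the 4 chains were called as follows by limma at an adjusted p under 0.05. In vehicle, PKN2 KO against WT, 1 of the 4 was called, Itga7 as higher, where 13.9% of all 238 genes were called (10.9% higher, 2.94% lower). After TGF-β1, PKN2 KO against WT, 1 was called, Itga11 as lower, where 15.1% of all genes were called (8.82% higher, 6.3% lower). With TGF-β1 in WT cells 3 were called, Itga7 as higher and Itga6 and Itga11 as lower, where 50.8% of all genes were called (23.9% higher, 26.9% lower). With TGF-β1 in PKN2 KO cells all 4 were called, Itga7 as higher and Itga6, Itga8 and Itga11 as lower, where 48.7% of all genes were called (19.7% higher, 29% lower). For the difference between the 2 responses 1 was called, Itga11 as lower, where 3.36% of all genes were called (0.84% higher, 2.52% lower). Groups did not overlap for 3 of the 4 chains between genotypes in vehicle (32.4% of all genes), 2 after TGF-β1 (28.2%), 3 with TGF-β1 in WT (55.9%) and 4 with TGF-β1 in PKN2 KO cells (52.9%). Because the chains were selected on these counts, nothing is read from these numbers. Each group served in more than 1 of these comparisons, so they are not independent of each other.

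The scaling shifted all genes. The median difference over all tested genes was 0.21 between genotypes in vehicle and 0.13 after TGF-β1, but 0.03 and 0.02 with TMM factors. With TGF-β1 it was 0.00028 in WT and -0.14 in PKN2 KO cells, and -0.25 and -0.34 when libraries were scaled to their total counts. Relative to the median of all genes, Itga7 stood at 1.40 between genotypes in vehicle, Itga8 at 0.71, Itga11 at 0.36 and Itga6 at 0.12. After TGF-β1 the genotype differences relative to the median were 0.41 for Itga6, 0.25 for Itga7, -0.06 for Itga8 and -2.25 for Itga11. The split of called genes between genotypes also moved with scaling, from 26 higher and 7 lower in vehicle to 20 and 13 with TMM factors and 19 and 20 with median-of-ratios factors. After TGF-β1 it moved from 21 higher and 15 lower to 27 and 29 with TMM factors and 25 and 30 with median-of-ratios factors. With TGF-β1 in WT cells it was 57 higher and 64 lower, and 54 and 95 with total count scaling. For the difference between responses it was 2 higher and 6 lower, and 1 and 7 with total count scaling.

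The other 14 α chains on the panel are what remained after the chains described above were picked with the counts known. Itga7 and Itga11, the only tested α chains called between genotypes by limma, had thereby been taken out. The absence of genotype calls among the remaining chains is therefore not the result of an unselected test. Itga4 and Itgal were at 0 in every library, Itgad, Itgae, Itgam and Itgax were below the filter, and 8 were tested. None of the 8 was called between genotypes by limma at an adjusted p under 0.05, in vehicle or after TGF-β1, or for the difference between responses, and edgeR and DESeq2 called 0 as well. At an unadjusted p under 0.05 the count was 0 in vehicle, 1 (Itga1) after TGF-β1 and 1 (Itga1) for the difference between responses. Their median genotype difference was 0.24 in vehicle and -0.02 after TGF-β1, beside 0.21 and 0.13 over all tested genes. Of single chains, Itga1, a collagen receptor chain, was the one furthest apart between genotypes after TGF-β1, at 17.7, 11.9 and 15.4 normalised counts in WT and 28.7, 27.5 and 25.6 in PKN2 KO cells. This gave a difference of 0.84 (SE 0.34) and an adjusted p of 0.11 by limma, with no overlap between the genotypes. That difference was called under 3 of 24 alternatives.  With TGF-β1, 3 rose and 2 fell in WT cells, where 23.9% of all genes rose and 26.9% fell. In PKN2 KO cells 2 rose and 3 fell, where 19.7% of all genes rose and 29% fell. With 50.8% and 48.7% of all genes called, 5 of 8 is not shown to be particular to these chains.

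Among the tested laminin and RGD receptor chains, Itga3, which forms a laminin receptor with β1, fell in both genotypes. Its counts were 440, 387 and 376 in WT vehicle and 116, 107 and 134 in WT with TGF-β1. In PKN2 KO cells they were 456, 377 and 427 in vehicle and 98.5, 99.7 and 89.1 with TGF-β1. The change was -1.75 (SE 0.17, adjusted p = 6.9e-07 by limma) in WT and -2.12 (SE 0.17, adjusted p = 1.4e-07) in PKN2 KO cells. Itga3 therefore went the way of Itga6 and opposite to Itga7 among the laminin receptor chains. Itga5, the fibronectin receptor chain, rose by 2.10 (SE 0.20, adjusted p = 4.5e-07 by limma) in WT and by 1.86 (SE 0.20, adjusted p = 1.8e-06) in PKN2 KO cells. Its counts went from between 2713 and 3152 to between 10975 and 13898 in WT, and from between 3328 and 3695 to between 10322 and 16240 in PKN2 KO cells. Itgav, which pairs with several β chains and helps to release latent TGF-β, rose by 0.83 (SE 0.30) in WT with an adjusted p of 0.030 by limma. In PKN2 KO cells the difference of Itgav was 0.40 (SE 0.30) with an adjusted p of 0.31. The libraries overlapped in both genotypes. The call of Itgav in WT was lost without WT vehicle B, WT vehicle C, WT TGF-β1 A or WT TGF-β1 C, with an adjusted p of up to 0.12 over the alternatives.

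Among the collagen receptor chains, Itga2 went opposite to Itga11. It was at 1.18, 4.73 and 4.93 in WT vehicle and 53.1, 26.9 and 50.0 in WT with TGF-β1, and at 5.86, 6.36 and 2.12 in PKN2 KO vehicle and 52.0, 47.3 and 41.5 in PKN2 KO cells with TGF-β1. The differences were 3.34 (SE 0.48, adjusted p = 3.4e-05 by limma) and 3.14 (SE 0.48, adjusted p = 6.9e-05). Itga2 passed the filter through the 6 libraries with TGF-β1 only. The difference of Itga1 was -0.84 (SE 0.34, adjusted p = 0.051 by limma) in WT and 0.22 (SE 0.34, adjusted p = 0.64) in PKN2 KO cells. Its WT value passed the threshold under 11 of 24 alternatives, among them all 3 other scalings. Itga10, a collagen receptor chain known from cartilage, showed no call, with a spread of 10.6 to 56.1 in WT vehicle alone. Itga2b, the platelet integrin chain, fell by 1.30 (SE 0.41, adjusted p = 0.015 by limma) in WT and fell by 1.57 (SE 0.41, adjusted p = 0.0052) in PKN2 KO cells. The WT call of Itga2b was lost without WT vehicle B or WT TGF-β1 A, with an adjusted p of up to 0.069. Itga9, which binds tenascin C and osteopontin, had a difference of -1.32 (SE 0.65, adjusted p = 0.11 by limma) in WT and fell by 1.77 (SE 0.65, adjusted p = 0.036) in PKN2 KO cells. It passed the filter through 4 vehicle libraries, and its PKN2 KO call was lost without PKN2 KO vehicle A or C or PKN2 KO TGF-β1 B or C, with an adjusted p of up to 0.14.

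**Figure D2:**
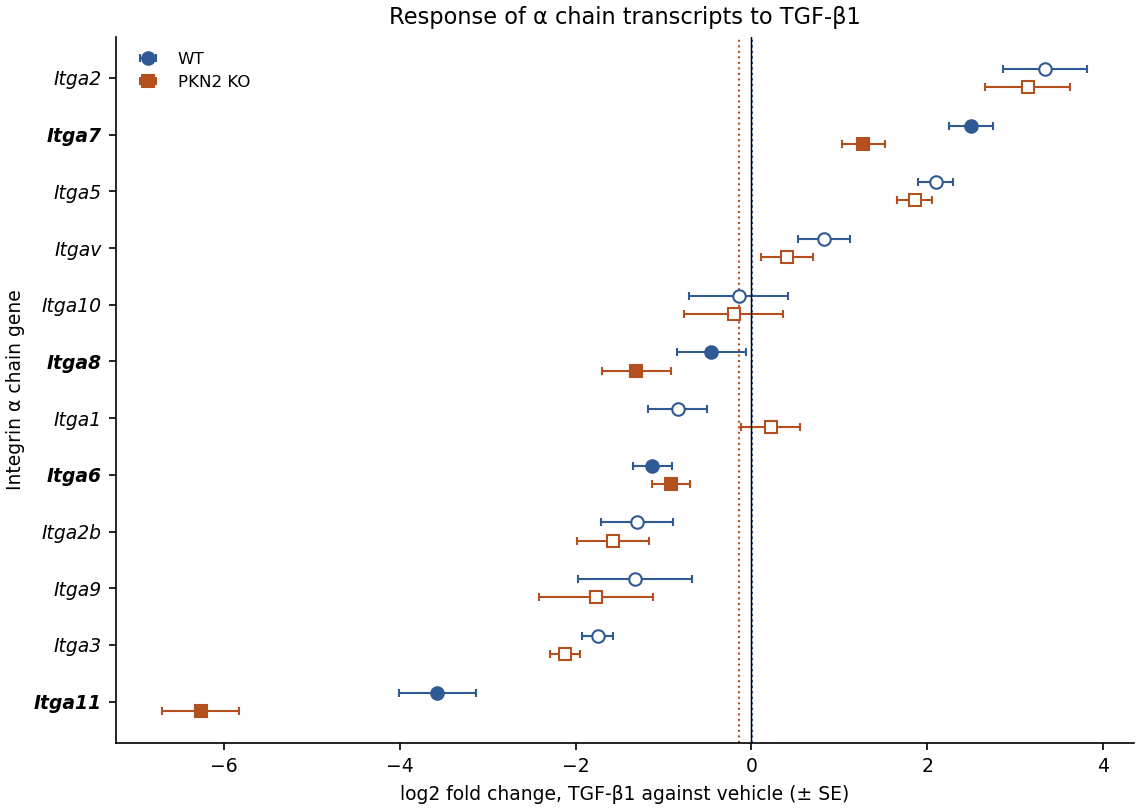
Change with TGF-β1 (x axis, log2 fold change ± SE of the fit) of the 12 tested α chain genes (y axis, ordered by the change in WT) in WT (blue circles) and PKN2 KO cells (orange squares). Filled symbols and bold names are Itga6, Itga7, Itga8 and Itga11, and dotted lines are the medians of all 238 tested genes. Itga2, Itga7, Itga5 and Itgav lie right of 0 in both genotypes, and Itga11 lies furthest to the left, at -3.57 in WT and -6.27 in PKN2 KO cells.

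**Figure D3:**
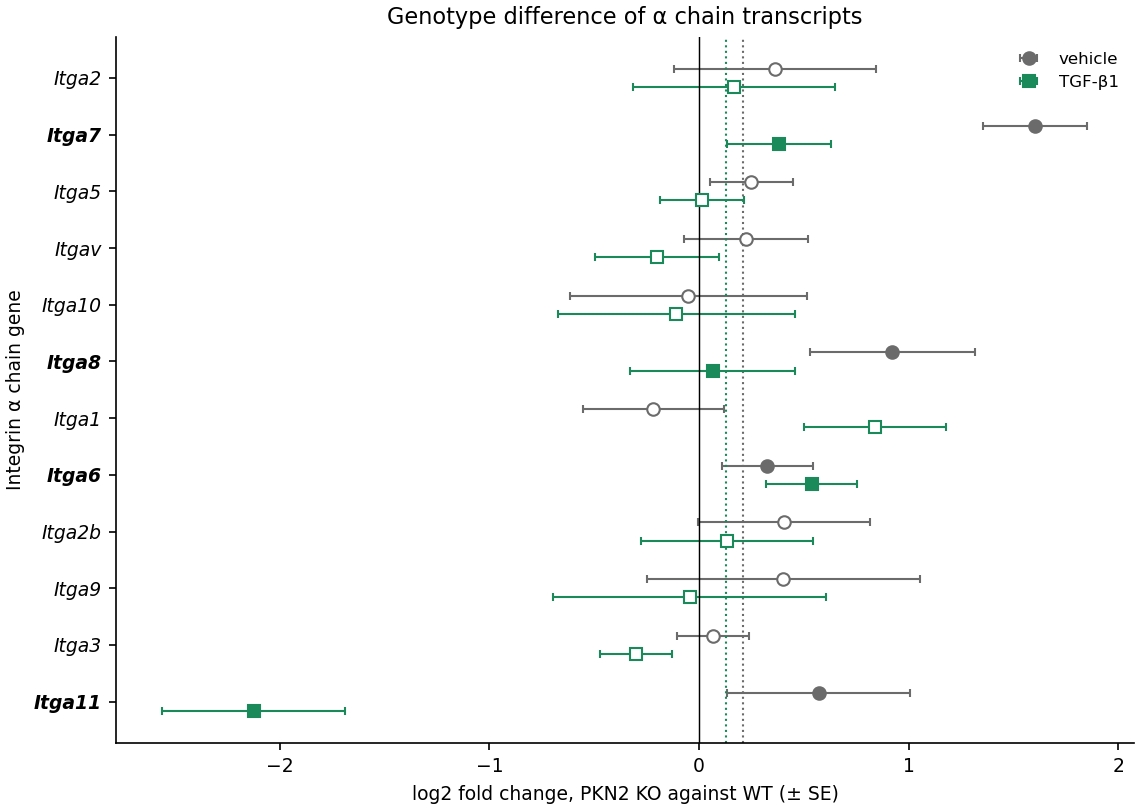
Difference between PKN2 KO and WT cells (x axis, log2 fold change ± SE of the fit) of the same 12 α chain genes in vehicle (grey circles) and with TGF-β1 (green squares), in the same order. Filled symbols and bold names are Itga6, Itga7, Itga8 and Itga11, and dotted lines are the medians of all 238 tested genes, 0.21 and 0.13. Itga7 in vehicle (1.60) and Itga11 with TGF-β1 (-2.12) are the points furthest from 0.

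The β chains on the panel were next examined, and 6 of the 7 listed were tested (Itgb6 was below the filter). Itgb4, which encodes the β4 partner of α6, was not among the genes listed, so it was not measured here. Itgb1, the partner of all 4 α chains, was not called between genotypes by limma in vehicle (0.06, SE 0.30, adjusted p = 0.91) or after TGF-β1 (-0.05, SE 0.30, adjusted p = 0.95). With TGF-β1 it rose by 1.19 (SE 0.30, adjusted p = 0.0040) in WT and 1.08 (SE 0.30, adjusted p = 0.0085) in PKN2 KO cells, from 18026, 11123 and 13002 to 41531, 24747 and 30230 in WT and from 17008, 10641 and 16405 to 44024, 21354 and 29777 in PKN2 KO cells. So Itgb1 transcript was higher in the same libraries in which Itga6 and Itga11 were lower. Itgb3, which pairs with αv and αIIb, was the 1 β chain called between genotypes, at 70.8, 29.1 and 28.6 in WT vehicle and 83.2, 82.7 and 122 in PKN2 KO vehicle (1.25, SE 0.37, adjusted p = 0.038 by limma). That call was lost under 11 of 24 alternatives, including TMM and median-of-ratios factors, the edgeR test and 7 of the 12 single-library omissions, with an adjusted p of up to 0.16. With TGF-β1 Itgb3 rose by 3.50 (SE 0.37, adjusted p = 1.6e-06 by limma) in WT and by 2.53 (SE 0.37, adjusted p = 5.2e-05) in PKN2 KO cells. Itgb7, best known from lymphocytes, fell in both genotypes, with differences of -2.31 (SE 0.31) in WT and -2.16 (SE 0.31) in PKN2 KO cells and adjusted p of 1.5e-05 and 3.6e-05 by limma. Itgb8, the partner of αv in activating latent TGF-β, fell in both as well, with differences of -2.06 (SE 0.68) and -2.98 (SE 0.68) and adjusted p of 0.020 and 0.0022 by limma. It was at 11.8, 7.43 and 7.89 in WT vehicle and at 23.4, 22.6 and 21.2 in PKN2 KO vehicle, and its genotype difference of 1.25 (SE 0.68) had an adjusted p of 0.28 by limma. Itgb8 passed the filter through 4 vehicle libraries only, and its WT call with TGF-β1 was lost without WT vehicle A or WT TGF-β1 B, with an adjusted p of up to 0.10. Itgb2, the leukocyte β chain, was at 16.5, 23.0 and 17.7 in WT vehicle and fell, with differences of -1.31 (SE 0.40, adjusted p = 0.012 by limma) in WT and -1.65 (SE 0.40, adjusted p = 0.0029) in PKN2 KO cells. It passed the filter through the 6 vehicle libraries only. Itgb5, another partner of αv, was not called in any comparison by the main limma fit. Between genotypes it was called under 3 of 24 alternatives in vehicle and 3 of 24 after TGF-β1, with total count scaling and the letter as a block. With TGF-β1 it was called under 1 of 24 in each genotype. After TGF-β1 no β chain was called between genotypes by the main limma fit, edgeR or DESeq2, and 0 were under an unadjusted p of 0.05.

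**Figure D4:**
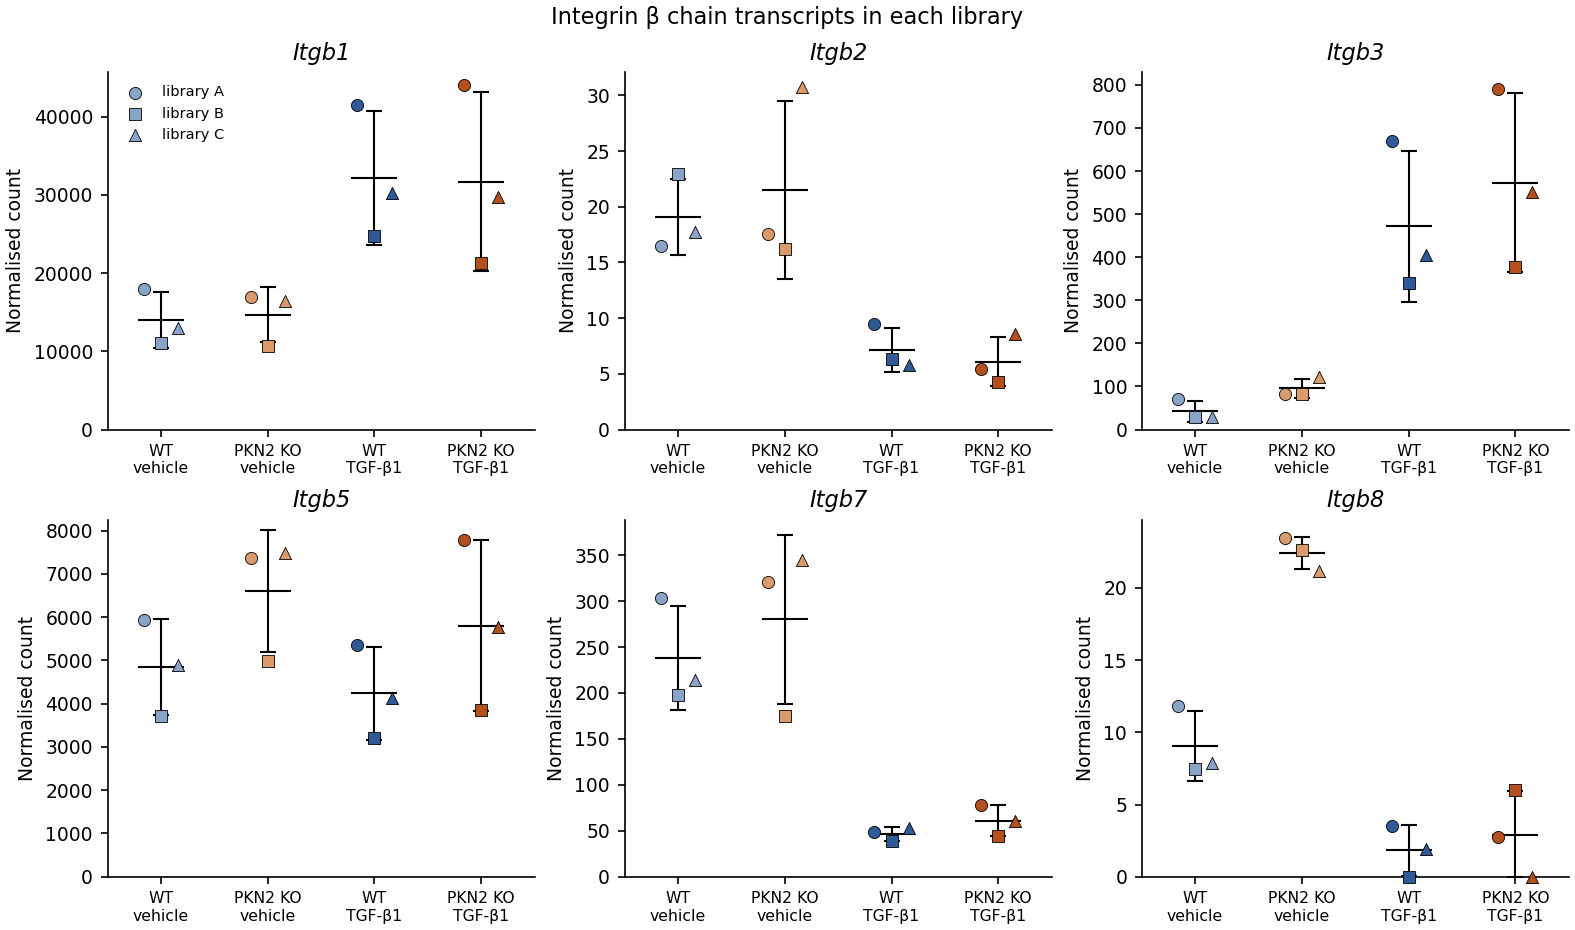
Normalised counts (y axis, linear, from 0) of the 6 tested integrin β chain genes in the 4 groups (x axis). Symbols mark libraries A, B and C, the wide bar is the mean and the whiskers are 1 SD (n = 3), cut at 0. Itgb1 and Itgb3 are higher with TGF-β1 and Itgb2, Itgb7 and Itgb8 lower in both genotypes, and Itgb3 in vehicle has a mean of 42.8 in WT and 95.9 in PKN2 KO cells.

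Ligands of the 4 chains were described by the same test. Of 9 laminin chains, the ligands of α6 and α7 receptors, 5 were tested. Lama5, the α chain of laminin-511 and laminin-521, was the 1 called between genotypes. It was at 143, 66.2 and 73.9 in WT vehicle and at 387, 257 and 421 in PKN2 KO vehicle (1.96, SE 0.33, adjusted p = 0.0014 by limma). After TGF-β1 it was at 17.7, 14.2 and 17.3 in WT and 88.9, 51.6 and 62.2 in PKN2 KO cells (1.95, SE 0.33, adjusted p = 0.00074). In vehicle, Itga7 and Lama5 were thus both higher in PKN2 KO cells. With TGF-β1 they went in opposite directions, since Lama5 fell by 2.37 (SE 0.33, adjusted p = 2.4e-05 by limma) in WT and fell by 2.38 (SE 0.33, adjusted p = 2.9e-05) in PKN2 KO cells. Lamb1 rose by 1.01 (SE 0.21, adjusted p = 0.0010) and 0.89 (SE 0.21, adjusted p = 0.0031), and Lamb3, at up to 3.54 in vehicle and 11.9 to 35.6 with TGF-β1, rose in both as well, having passed the filter through the 6 libraries with TGF-β1 only. Lamb2 fell by 0.67 (SE 0.21, adjusted p = 0.013) in WT and fell by 1.06 (SE 0.21, adjusted p = 0.00063), and the WT call was lost without WT vehicle B, WT vehicle C or WT TGF-β1 A (adjusted p of up to 0.068). Lamc1, the γ chain shared by most laminins, was not called by the main limma fit. Of 24 alternatives, 2 called it between genotypes in vehicle, 1 after TGF-β1 and 3 with TGF-β1 in PKN2 KO cells. The tetraspanin Cd151, which associates with laminin-binding integrins at the membrane, was not called by the main fit either. With TGF-β1 it was called in each genotype under 3 of 24 alternatives, namely TMM factors, total count scaling and the letter as a block. Another tetraspanin, Cd9, fell by 0.79 (SE 0.22, adjusted p = 0.0064) in WT and fell by 0.58 (SE 0.22, adjusted p = 0.038) in PKN2 KO cells. The PKN2 KO call of Cd9 was lost without WT vehicle C, PKN2 KO vehicle A, PKN2 KO vehicle C, WT TGF-β1 C or PKN2 KO TGF-β1 B (adjusted p of up to 0.16).

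Of the RGD ligands that α8 binds, 3 of 4 were tested. None was called between genotypes by the main limma fit, edgeR or DESeq2 (1 in vehicle, Fn1, and 0 after TGF-β1 at an unadjusted p under 0.05). Under 4 of 24 alternatives Fn1 was called in vehicle, and under 4 of 24 Spp1 was called after TGF-β1. Total count scaling and the letter as a block were among these for both. Spp1 in vehicle was called under 1, with the letter as a block. Tnc, which encodes tenascin C, rose by 3.18 (SE 0.22, adjusted p = 2.9e-08 by limma) in WT and 3.27 (SE 0.22, adjusted p = 2.5e-08) in PKN2 KO cells, from between 858 and 1341 in the vehicle libraries to between 7171 and 12395 with TGF-β1. Spp1, which encodes osteopontin, fell by 1.13 (SE 0.27, adjusted p = 0.0023) in WT and fell by 0.88 (SE 0.27, adjusted p = 0.013). The PKN2 KO call of Spp1 was lost without PKN2 KO vehicle C or PKN2 KO TGF-β1 B (adjusted p of up to 0.061). Fn1, which encodes fibronectin, was at 38099, 15884 and 22429 in WT vehicle and 46203, 31630 and 49529 in PKN2 KO vehicle, a difference of 0.80 (SE 0.36) with an adjusted p of 0.17 by limma. Of the 5 fibrillar collagen chains, the ligands of α11, none was called between genotypes by the main limma fit, edgeR or DESeq2. At an unadjusted p under 0.05 the count was 0. After TGF-β1, however, Col5a1 was called between genotypes under 4 of 24 alternatives, among them TMM and median-of-ratios factors. Col3a1 was called there under 3 of 24, with total count scaling and with the letter as a block. Col1a1, whose counts ran from 105448 to 297374, had a difference with TGF-β1 of 0.44 (SE 0.38, adjusted p = 0.38 by limma) in WT and 0.33 (SE 0.38, adjusted p = 0.53) in PKN2 KO cells. Col5a2 rose by 0.92 (SE 0.24, adjusted p = 0.0046) and 0.99 (SE 0.24, adjusted p = 0.0031). Col5a1 rose by 0.65 (SE 0.18, adjusted p = 0.0083) in WT with a difference of 0.18 (SE 0.18, adjusted p = 0.46) in PKN2 KO cells. Col3a1 went the other way, with a difference of -0.65 (SE 0.34, adjusted p = 0.13 by limma) in WT. In PKN2 KO cells its difference was -0.08 (SE 0.34, adjusted p = 0.89). The WT difference of Col3a1 was called under 6 of 24 alternatives, among them all 3 other scalings. In no library was the near absence of Itga11 after TGF-β1 matched by a near absence of fibrillar collagen transcript.

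Finally, the tested genes whose log2 values ran most like those of each chain over the 12 libraries were listed. These correlations are a description over libraries that share groups, letters and scaling factors. For Itga6 they were Col6a2, Adgre5 and Ecm1, each with a Pearson r of 0.97, and Col6a2 had mean counts of 2542 (WT) and 3790 (PKN2 KO) with vehicle, then 757 (WT) and 1601 (PKN2 KO) with TGF-β1. For Itga7 they were Megf10 (0.99), Gpc1 (0.97) and Col18a1 (0.96), and Megf10, a scavenger receptor of muscle satellite cells and glia, had means of 1016, 2351, 3257 and 4898 in the same order. For Itga8 they were Adam9, Mmp15 and Col12a1, each at 0.89. For Itga11 they were Itga3 (0.97), Efemp1 (0.95) and Vcam1 (0.95), and Efemp1, a fibulin-like matrix protein, had means of 5459, 3081, 36.0 and 19.5. Efemp1 and Vcam1 had lower means in PKN2 KO than in WT cells with vehicle, whereas Itga11 had a higher one. Between the chains themselves, r was 0.84 for Itga6 with Itga8, 0.72 for Itga6 with Itga11 and 0.59 for Itga8 with Itga11. Itga7 had an r of -0.50 with Itga6, -0.18 with Itga8 and -0.79 with Itga11.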

How the data were processed

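Expression was measured with the QIAseq mouse extracellular matrix and cell adhesion panel in 12 libraries. Per the study's methods, the authors obtained counts from Qiagen's pipeline, normalised them to reference genes, which are not named in the sources used here, and compared groups with DESeq2. The submitters' processing notes name STAR, DESeq2 1.32 and build mm10. The deposited normalised tables hold a signal per gene and library, and all 5040 of 5040 values were whole reads times 1 step per library within 0.01 reads. The deposited raw counts equalled these reads for all 420 genes in the 6 libraries that could be matched by name, and 6 raw columns with repeated names were not used.

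Of the 420 genes, 77 were at 0 throughout, and tests covered the 238 that reached a normalised count of 10 in 3 or more libraries. limma 3.58.1 (R 4.3.3; trend and robust estimation) was fitted to log2(normalised count + 1) over the 4 group means, with Benjamini-Hochberg adjustment over 238 genes and a threshold of 0.05. edgeR 4.0.16 and DESeq2 1.42.0 on the recovered reads served as alternatives. Alternatives also covered scaling, pseudocount, filter, variance model, a replicate block and each library left out. Python 3.11.15 drew the figures. Depth limits Itga11 most, since a count of 0 is compatible with an expected count of up to about 3 reads at 95% confidence.

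The 4 chains and all gene lists were chosen with earlier results of these data known. Named genes were the 4 chains, all other α chains, β chains that passed the filter, ligands and partners that were called in a comparison, and the 3 tested genes with the highest Pearson r to each chain. Fn1, Col1a1, Col3a1, Lamc1 and Cd151 were named outside this rule, after their values were seen. The stellate, epithelial, endothelial, leukocyte and glial marker lists, and 2 muscle markers, checked the labelled cell type.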

Additional observations from a re-analysis of the deposited data

Results flagged for a closer look

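The response of Itga11 to TGF-β1 differed between genotypes by -2.69 on the log2 scale (SE 0.62, PKN2 KO minus WT), past the threshold of the interaction test by limma. Itga11 was chosen with this value known, so the test is no independent evidence. The PKN2 KO end of the difference rests on 4 reads in 3 libraries, and with a pseudocount of 5 the value was -1.60. The call was lost when libraries were scaled to their total counts and, in 8 of 12 single-library omissions, without WT vehicle B or C, PKN2 KO vehicle A, B or C, WT TGF-β1 A or C, or PKN2 KO TGF-β1 C. Over these alternatives the adjusted p by limma, edgeR or DESeq2 ran from 5.2e-06 to 0.088.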

How the results depend on the processing

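The calls of Itga7 between genotypes in vehicle, of Itga11 between genotypes after TGF-β1, and of Itga6, Itga7 and Itga11 with TGF-β1 in each genotype held under every alternative in which the gene was tested. Itga11 was not tested when each library had to reach the filter. These chains were chosen with their counts known, and Itga11 passed the main filter through vehicle libraries only. That their calls held is therefore no independent evidence. Of 12 tested α chains, 1 was called between genotypes in vehicle, and 2 with total count scaling (Itga8 added). After TGF-β1 1 was called, against 2 with total count scaling (Itga6 added), 0 with the filter in each library and 2 without trend and robust estimation (Itga1 added). For the difference between responses 1 was called, against 2 with TMM factors, median-of-ratios factors or DESeq2 (Itga7 added) and 0 with the filter in each library. With total count scaling it was 1 as well, but Itga7 in place of Itga11. With 1 library left out the counts ran from 1 to 1, 1 to 1, 6 to 9 (8 with all libraries, TGF-β1 in WT), 7 to 9 (9 with all, TGF-β1 in PKN2 KO) and 0 to 2 (difference between responses). The call of Itga8 with TGF-β1 in PKN2 KO cells was lost without PKN2 KO vehicle C or PKN2 KO TGF-β1 B, with an adjusted p of up to 0.062. With a pseudocount of 5 the Itga11 differences were -1.05 between genotypes after TGF-β1 and -4.67 for TGF-β1 in PKN2 KO cells. The sign of the Itga8 genotype difference after TGF-β1 also turned without WT TGF-β1 B (-0.21) or PKN2 KO TGF-β1 A (-0.25), and that of the Itga6 difference between responses without WT vehicle A (-0.0039).

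With the letter as a replicate block, 3 α chains were called between genotypes in vehicle, 3 after TGF-β1 and 2 for the difference between responses, and 2, 4 and 2 with the block and neither trend nor robust estimation. The main limma fit did not take the letters as pairs, and no label names the line or culture behind a letter. Yet 13 of 18 same-letter correlations of deviations were over 0.1 (mean 0.39, -0.23 to 0.70). Libraries of 1 letter thus shared part of their deviations, which the main fit left in its spread. Of 12 libraries, 9 correlated best with their own letter. All A and B pairs were at 0.35 or more, while 1 of 6 C pairs was over 0.1. With the block the prior degrees of freedom were infinite for 197 genes, and the part of this in its larger counts was not tested.

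Over all genes, 33 were called between genotypes in vehicle (87 and 73 with the 2 block fits, 18 without WT vehicle C or without PKN2 KO vehicle A, 20 without PKN2 KO vehicle C). After TGF-β1 36 were called, against 56, 55 and 65 with TMM, median-of-ratios and total count scaling and 101 and 91 with the block fits. For the difference between responses 8 were called, against 42 and 20 with the block fits, 4 without trend and robust estimation and 0 to 11 with 1 library left out. Depth limits Itga11 after TGF-β1, and the spread between libraries limits Itga8.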
